A study of Mus musculus with 4 samples.

Results

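Glial lineage genes were read on arrays of mouse P19 embryonal carcinoma cells, a teratocarcinoma-derived line that takes a neural path when aggregated with retinoic acid. The 10 genes were the astrocyte genes Gfap, S100b, Slc1a2, Slc1a3 and Sparcl1, the nuclear factor I genes Nfia, Nfib and Nfix, and the transcription factor genes Sox9 and Olig1. They were taken by name, and every probe set annotated with exactly 1 of these symbols was kept, which gave 24 of the 22690 probe sets in the table. The first line was P19 cells with constitutive human LIN28A, which binds let-7 precursors and keeps them from maturing, and they were set against unmodified P19 cells. Aggregation with all-trans retinoic acid (5e-07 M) lasted 4 days in both lines, and each line had 2 arrays, numbered 1 and 2. The sources used here do not say which promoter drove the transgene or whether the LIN28A line was 1 clone, so any difference between the lines belongs to these lines as a pair. The study looked at how LIN28A kept on during neural differentiation bears on the choice between neurons and glia.

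In the developing brain, neural progenitors make neurons first and glia later. The switch involves cytokine signalling through gp130 and STAT3, Notch signalling, the factors Sox9 and nuclear factor I, and loss of DNA methylation at astrocyte genes, while proneural factors such as Neurog1 hold glial genes back. P19 cells follow the same order in culture, with neurons ahead of astrocytes. Of the genes described here, Gfap encodes an intermediate filament of astrocytes, S100b a calcium-binding protein, and Slc1a2 and Slc1a3 the glutamate transporters GLT-1 and GLAST, of which GLAST is already made by radial glia. Sparcl1 encodes hevin, a matrix protein secreted by astrocytes. Olig1 encodes a basic helix-loop-helix factor of the oligodendrocyte lineage.

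Promoter sequence was at hand for 6 of the 10 genes, and the windows of 3 astrocyte genes are shown because they include genes that read low on every array (S100b), low on all but 1 (Gfap) and well above an intensity of 16 (Slc1a3). Each window runs from 250 bases before to 50 bases after the annotated start, 5′ to 3′, from RefSeq on GRCm38.p6. They lie at chr11:102897151-102897450 on the minus strand for Gfap, at chr10:76253586-76253885 on the plus strand for S100b and at chr15:8710758-8711057 on the minus strand for Slc1a3. Capitals mark matches to TTGGC on either strand, the core that nuclear factor I proteins bind, and to TTCNNNGAA, the core of STAT sites. No marked matches overlap.
Gfap: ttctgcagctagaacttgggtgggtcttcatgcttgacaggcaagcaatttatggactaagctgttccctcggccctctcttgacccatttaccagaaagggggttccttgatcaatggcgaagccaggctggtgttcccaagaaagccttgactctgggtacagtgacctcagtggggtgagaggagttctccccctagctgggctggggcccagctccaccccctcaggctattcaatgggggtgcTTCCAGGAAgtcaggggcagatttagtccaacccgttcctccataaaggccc
S100b: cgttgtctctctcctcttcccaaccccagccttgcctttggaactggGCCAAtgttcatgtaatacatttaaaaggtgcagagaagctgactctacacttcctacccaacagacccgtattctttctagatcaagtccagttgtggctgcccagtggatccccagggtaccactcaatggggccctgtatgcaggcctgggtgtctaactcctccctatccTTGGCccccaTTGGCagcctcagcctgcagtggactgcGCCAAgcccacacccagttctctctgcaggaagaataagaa
Slc1a3: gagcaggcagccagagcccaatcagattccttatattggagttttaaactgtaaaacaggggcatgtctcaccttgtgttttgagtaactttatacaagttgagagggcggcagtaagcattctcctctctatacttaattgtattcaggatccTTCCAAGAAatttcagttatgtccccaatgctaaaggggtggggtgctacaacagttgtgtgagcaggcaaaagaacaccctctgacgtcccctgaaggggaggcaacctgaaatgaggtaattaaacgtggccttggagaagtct
The S100b window held 4 TTGGC matches and no TTCNNNGAA match. The Gfap and Slc1a3 windows each held 1 TTCNNNGAA match and no TTGGC match. Over 32851 windows of 27025 genes, 46.7% held TTGGC on either strand, 0.77% held at least 4 such matches and 8.3% held TTCNNNGAA. Each of the 3 windows held 3 CpG dinucleotides, against a median of 7 over all windows, and 31.4% of windows held 3 or fewer. These matches describe the letters in the windows only.

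Arrays of the same number deviated together from the means of their lines (r = 0.62 across probe sets), so each difference is given within number 1 and within number 2. The arrays' median intensities were 29.0 and 36.7 in LIN28A cells and 35.8 and 38.6 in control cells. The middle probe set of 18S ribosomal RNA read 136.3 and 11.3 in LIN28A cells and 676.6 and 9.2 in control cells, so both number 1 arrays, and control 1 above all, stood apart. The part of such array differences in the values below was not tested. Differences are of log2(intensity + 16), LIN28A minus control, a scale that shrinks the change of low probe sets. Within a number there was 1 array a line and no test, and the labels do not say that numbers 1 and 2 were separate cultures.

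Readings of the glial genes ran from the bottom of the intensity range to above the arrays' medians on day 4. Of the 24 probe sets, 11 read under 16 in all 4 arrays (45.8%, against 31.1% of all probe sets other than controls), 6 read 16 or more in all 4, and 7 were mixed. For 4 genes, S100b, Slc1a2, Olig1 and Sparcl1, every probe set read under 16 in every array. Slc1a3, Nfib and Sox9 were the 3 genes with a probe set at 16 or more in every array. The table holds no detection calls, so a reading under 16 is a low reading and not a proof of absence. In whole cultures, fewer cells of a type and less RNA per cell cannot be told apart.

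**Figure D1:**
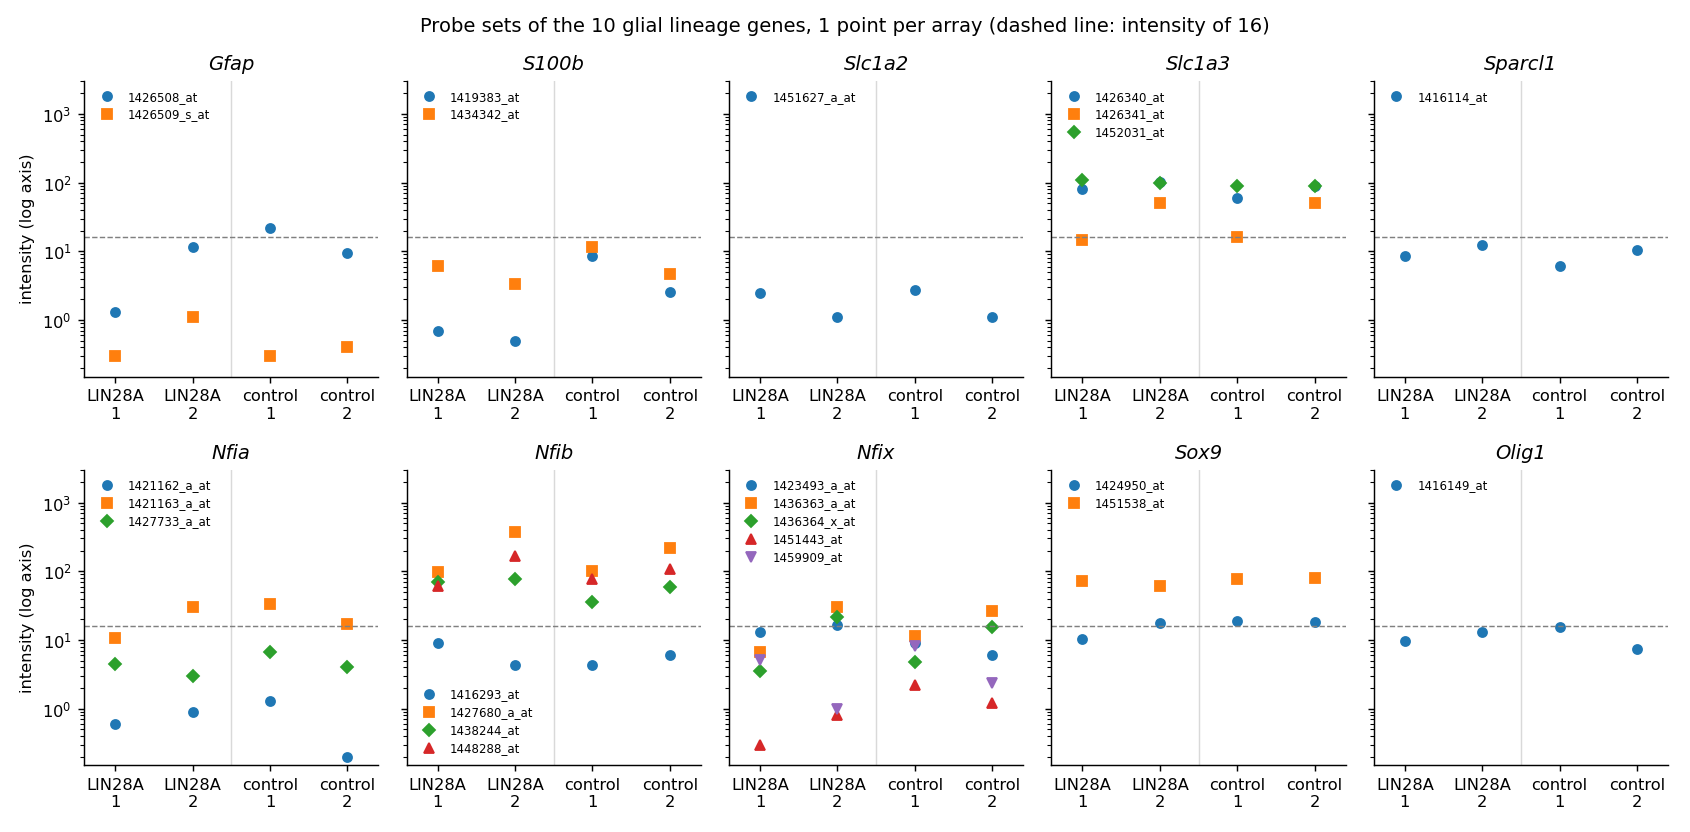
Intensity (log axis) of each of the 24 probe sets in each array, 1 panel per gene, with LIN28A arrays left of control arrays and a dashed line at 16. Slc1a3, Nfib and Sox9 have probe sets above the line in all arrays, while S100b, Slc1a2, Olig1 and Sparcl1 lie below it throughout.

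Gfap, the defining astrocyte filament gene, read 1.3 and 11.5 in LIN28A arrays 1 and 2, against 22.1 and 9.3 in control arrays 1 and 2, at probe set 1426508_at. Only control 1 exceeded 16, and the lines overlapped. The log2 difference was -1.14 in number 1 and 0.12 in number 2, so the sign turned between numbers. The fitted difference was -0.51 ± 0.38 (SE, n = 2 each; 95% interval -1.44 to 0.42; limma adjusted p = 1). Leaving out LIN28A replicate 1 gave -0.18, leaving out control replicate 1 gave -0.21, leaving out LIN28A replicate 2 gave -0.84 and leaving out control replicate 2 gave -0.8. With a pseudocount of 1 in place of 16 the difference was -1.52, and with 64 it was -0.18. The other Gfap probe set, 1426509_s_at, read 0.3 and 1.1 in LIN28A cells and 0.3 and 0.4 in control cells, with overlap and all 4 readings near 0.

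S100b, the astrocyte calcium-binding protein gene, read lower in LIN28A cells within both numbers at both probe sets, but at the floor. Probe set 1419383_at read 0.7 and 0.5 in LIN28A cells and 8.5 and 2.6 in control cells, without overlap. Probe set 1434342_at read 6.1 and 3.4 in LIN28A cells and 11.6 and 4.7 in control cells, where the lines overlapped. Neither reached the filter on mean level and neither was tested, and their log2 differences lay between -0.55 and -0.09. Slc1a2, the transporter gene of mature astrocytes, read 2.5 and 1.1 in LIN28A cells and 2.7 and 1.1 in control cells. Within each number its 2 readings were almost equal.

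Slc1a3, the transporter gene of radial glia and astrocytes, was the one member of the astrocyte group above 16 in all arrays. Probe set 1452031_at read 107.3 and 100 in LIN28A cells and 90.1 and 88.9 in control cells, with no overlap between the lines. The log2 difference was 0.22 in number 1 and 0.15 in number 2, and the fitted difference was 0.18 ± 0.28 (SE, n = 2 each; 95% interval -0.50 to 0.86; limma adjusted p = 1). The second probe set, 1426340_at, read 80.8 and 100.3 in LIN28A cells and 59.8 and 89.9 in control cells, a difference of 0.35 and 0.14. The last, 1426341_at, read 14.8 and 50.9 in LIN28A cells and 15.9 and 50.1 in control cells. At that probe set the number 2 arrays lay above the number 1 arrays in both lines (log2 difference 1.09), and the lines barely differed.

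Sparcl1, the hevin gene, read 8.5 and 12.4 in LIN28A cells and 6.2 and 10.3 in control cells. Its log2 difference was 0.14 in number 1 and 0.11 in number 2, close in both but under 16 throughout, and the lines overlapped.

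The nuclear factor I genes encode DNA-binding proteins that in mice are needed for timely gliogenesis. Nfib was read by 4 probe sets. The brightest, 1427680_a_at, gave 97.5 and 368.0 in LIN28A cells and 101.4 and 221.3 in control cells. LIN28A 2 was the highest array and both number 2 arrays lay above both number 1 arrays. The log2 difference between lines was -0.05 in number 1 and 0.69 in number 2, against 1.39 for number 2 minus number 1. Probe set 1448288_at showed the same order, with 61.1 and 169.3 in LIN28A cells and 76.7 and 107.2 in control cells. Its differences were -0.27 in number 1 and 0.59 in number 2.

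Another Nfib probe set, 1438244_at, read 70.9 and 77.6 in LIN28A cells and 36.0 and 59.7 in control cells. Here the LIN28A arrays were both above the control arrays, with a log2 difference of 0.74 in number 1 and 0.31 in number 2. The fitted difference was 0.52 ± 0.32 (SE, n = 2 each; 95% interval -0.26 to 1.31; limma adjusted p = 1), the highest fitted value among the members' tested probe sets. At the brightest probe set it was 0.32 ± 0.65 (95% interval -1.29 to 1.93). That value was -0.56 with LIN28A replicate 2 left out, -0.18 with control replicate 1 left out, 0.83 with control replicate 2 left out and 1.2 with LIN28A replicate 1 left out. The last probe set, 1416293_at, read between 4.4 and 9.0. In number 2 the 3 probe sets above 16 all lay higher in LIN28A cells, and in number 1 they split, with 1 higher and 2 lower.

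Nfia passed the filter at 1 probe set, 1421163_a_at, which read 10.8 and 30 in LIN28A cells and 32.9 and 17.2 in control cells. The lines crossed between numbers, at -0.87 in number 1 and 0.47 in number 2, and the fitted difference was -0.20 ± 0.39 (SE, n = 2 each). Leaving out LIN28A replicate 1 gave 0.19, leaving out control replicate 1 gave 0.081, leaving out LIN28A replicate 2 gave -0.59 and leaving out control replicate 2 gave -0.48. The other Nfia probe sets read between 0.2 and 6.7. Nfix was read by 5 probe sets. The brightest, 1436363_a_at, read 6.6 and 30 in LIN28A cells and 11.3 and 26.0 in control cells, again with number 2 above number 1 in both lines (log2 difference 0.82) and a fitted difference between lines of -0.07 ± 0.44 (SE, n = 2 each) that was 0.11 under quantile normalization and 0.06 under median centring. It was 0.44 without LIN28A replicate 1 and 0.24 without control replicate 2.

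The other Nfix probe sets did not tell 1 story. Probe set 1423493_a_at read 13.2 and 16.4 in LIN28A cells and 9.2 and 6.1 in control cells, higher in both LIN28A arrays by 0.21 in number 1 and 0.55 in number 2. Probe set 1436364_x_at, of a type that Affymetrix marks as open to cross-hybridisation, read 3.6 and 21.4 in LIN28A cells and 4.8 and 15.3 in control cells. The remaining 2 read between 0.3 and 8.3, and both leaned lower in LIN28A cells.

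Sox9, the SRY-box factor needed for the start of gliogenesis in the mouse spinal cord, was the one transcription factor gene of the group with both probe sets lower in both LIN28A arrays. Probe set 1451538_at read 73.0 and 61.1 in LIN28A cells and 76.4 and 80.2 in control cells. The gap was small, at -0.05 in number 1 and -0.32 in number 2, with a fitted difference of -0.19 ± 0.28 (SE, n = 2 each; 95% interval -0.88 to 0.51; limma adjusted p = 1). It was -0.083 without LIN28A replicate 2 and -0.29 without LIN28A replicate 1. Probe set 1424950_at read 10.3 and 17.5 in LIN28A cells and 18.8 and 18.1 in control cells, with differences of -0.40 and -0.03. Under quantile normalization the fitted differences were -0.13 and -0.03, and under median centring -0.06 and -0.09. Olig1, the oligodendrocyte lineage factor gene, read 9.8 and 13 in LIN28A cells and 15.7 and 7.4 in control cells. Its readings overlapped and its sign turned, at -0.30 in number 1 and 0.31 in number 2. The fitted difference of 0.01 was -0.078 without LIN28A replicate 2 and -0.21 without control replicate 2.

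**Figure D2:**
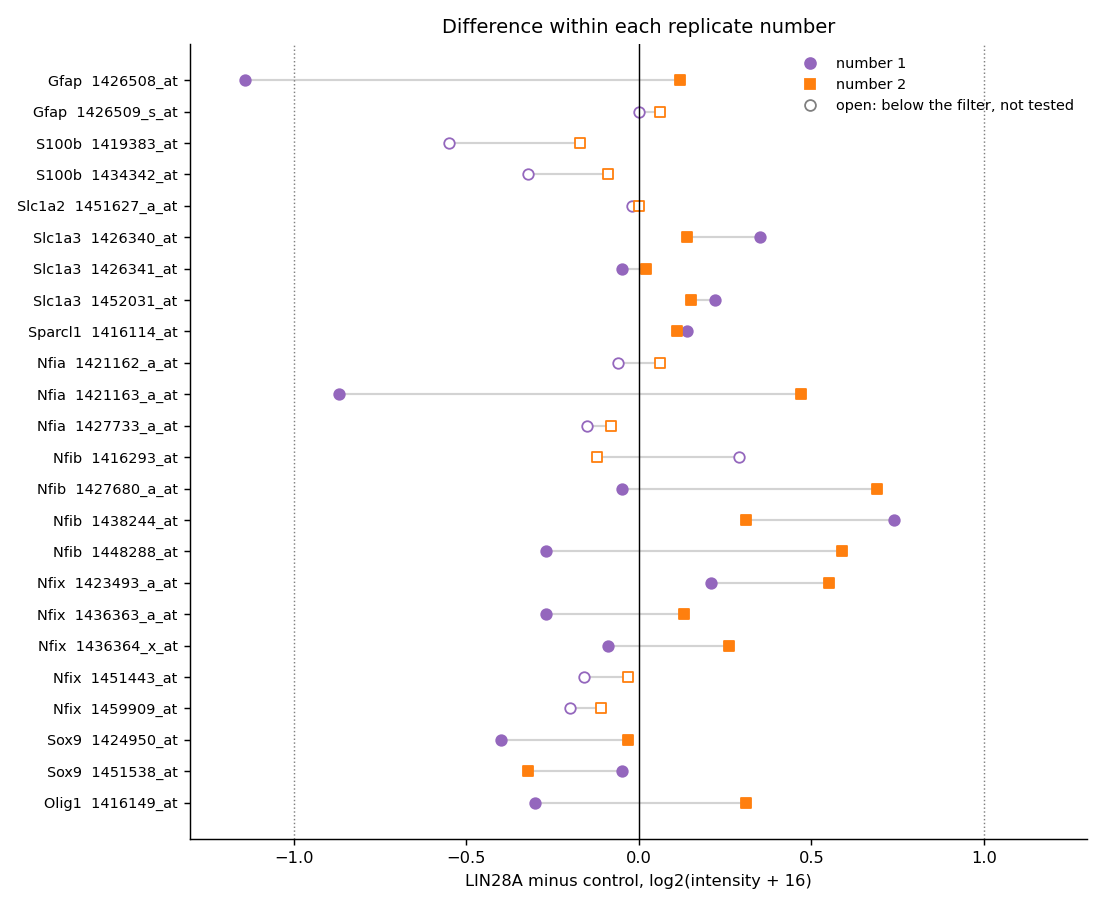
LIN28A minus control on the log2(intensity + 16) scale within number 1 (circles) and number 2 (squares) for each of the 24 probe sets, with open marks for the 9 below the filter and dotted lines at -1 and 1. The one mark past a dotted line is Gfap in number 1. Of the 15 tested probe sets, 8 have marks on opposite sides of 0 (6 under quantile normalization and 7 under median centring). Over all tested probe sets the shares were 42.1%, 43.4% under quantile normalization and 40.8% under median centring.

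As a group, none of the glial genes passed the test between the lines. Of the 24 probe sets, 15 probe sets of 8 genes passed the filter, and S100b and Slc1a2 had none that did. Of these 15, 0 passed limma's test in either direction at a 0.05 threshold after adjustment, as was the case over all 15838 tested probe sets (0% in each direction). Without adjustment 0 of the 15 had a p under 0.05, against 0.442% higher and 1.21% lower over all. For 3 of the 15 the LIN28A arrays were both above the control arrays (background 10%), namely Slc1a3 1452031_at, Nfib 1438244_at and Nfix 1423493_a_at. For 2, both of Sox9, they were both below (background 15.5%). Leaving out an array can only keep or raise such counts. The count above was 10 without LIN28A replicate 1 (32.1% over all tested probe sets without that array) and 5 without control replicate 2 (27.8%), and the count below was 9 without LIN28A replicate 2 (40.5%) and 5 without control replicate 2 (35%). A log2 difference of 1 or more in size occurred once, for Gfap in number 1, where 2.55% of all tested probe sets were lower and 1.02% higher by that much. None of the 15 differed by that much in number 2 (background 1.10% higher and 2.29% lower).

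Signs within number 1 depended on the scaling of the arrays, while the count within number 2 changed little with it. Among the 15 tested probe sets, 5 lay above 0 in number 1 (background 41.1%) and 13 did in number 2 (background 49.6%). Under quantile normalization those counts were 10 and 14 (51% and 52.5% over all), and under median centring 9 and 14 (61.4% and 55.7%). Signs were opposite in 8 of the 15 (42.1% over all tested probe sets). They were opposite in 6 under quantile normalization (43.4% over all) and in 7 under median centring (40.8% over all). The median difference of the 8 genes, each at its brightest probe set, was -0.03, against -0.05 over all tested probe sets. It turned to 0.14 under quantile normalization (0.01 over all) and 0.095 under median centring (0.08 over all), to 0.18 with a filter at the 50th percentile and to 0.066 with all tested probe sets of a gene averaged. Within numbers it was -0.16 in number 1 and 0.14 in number 2, against -0.09 and 0.00 over all tested probe sets, and the number 1 value turned to 0.026 under quantile normalization and 0.04 under median centring. The median was -0.32 without LIN28A replicate 2, 0.16 without LIN28A replicate 1 and 0.0075 without control replicate 2. The difference between numbers was larger in size than that between lines for 8 of the 15, a share that was not counted over all tested probe sets.

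Other astrocyte and radial glia genes were read for context. Of 40 such genes, 37 had a probe set and 30 were tested, and limma called 0 higher and 0 lower after adjustment. The LIN28A arrays were both below the control arrays for 10 of the 30 and both above for 1, against 16.6% and 11.5% over the brightest probe set of each of 8930 genes. With an array left out the counts can only hold or grow. Below and above, they were 16 and 7 without LIN28A replicate 1 (30.6% and 33.3% over the genes without that array), 16 and 4 without LIN28A replicate 2 (40.6% and 24.5%), 12 and 4 without control replicate 1 (34.1% and 28.5%) and 18 and 4 without control replicate 2 (36.1% and 28.1%). The median was -0.15, with -0.37 in number 1 and -0.11 in number 2, and it was -0.018 under median centring. Vim, the vimentin filament gene of radial glia, read 3682.1 and 2982.6 in LIN28A cells and 4084.5 and 4164.9 in control cells at probe set 1450641_at. Apoe, the astrocyte lipoprotein gene, read 24.4 and 48.0 in LIN28A cells and 53.1 and 60.1 in control cells. Clu, the clusterin gene, read 18.9 and 16.9 in LIN28A cells and 39.8 and 19.8 in control cells at its brightest probe set. These 3 were lower in both LIN28A arrays, with fitted log2 differences of -0.31, -0.51 and -0.40, but 3 other Clu probe sets and 2 other Vim probe sets had arrays that overlapped.

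Glul, the glutamine synthetase gene of astrocytes, was the one gene of that list higher in both LIN28A arrays at its brightest probe set. There, at 1426236_a_at, it read 357.2 and 394.2 in LIN28A cells and 327.0 and 260.7 in control cells. The other Glul probe set, 1426235_a_at, overlapped, with a log2 difference of -0.13 in number 1 and 0.43 in number 2. Fabp7, the brain lipid-binding protein gene of radial glia, read 613.0 and 734.6 in LIN28A cells and 565.2 and 1954.8 in control cells, a log2 difference of 0.11 in number 1 and -1.39 in number 2. Aldoc, the aldolase gene of astrocytes, read 75.2 and 47.0 in LIN28A cells and 286.1 and 49.7 in control cells, so its difference of -1.73 lay in number 1 alone. Gja1, the connexin 43 gene, overlapped between the lines at 2690.0 and 1495.1 in LIN28A cells and 3387.4 and 1799.5 in control cells. Id3, an inhibitor of basic helix-loop-helix factors, read 945.7 and 561.2 in LIN28A cells and 841.9 and 602.8 in control cells.

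The channel gene Aqp4 and the adhesion receptor gene Cd44, both used as astrocyte lineage markers, were low. Aqp4 read 4.9 and 1.6 in LIN28A cells and 19.5 and 2.3 in control cells at probe set 1434449_at. Cd44 read 13.8 and 4.6 in LIN28A cells and 14.7 and 3.3 in control cells. Of the 30 tested, 2 genes had an unadjusted p under 0.05, both lower (background 1.34% lower and 0.493% higher), and are named after their values were seen. Mt1, a metallothionein gene, read 27.0 and 50.1 in LIN28A cells and 171.4 and 86.4 in control cells (log2 difference -2.12 in number 1 and -0.63 in number 2). Ttyh1, which encodes a membrane protein of neural stem cells and astrocytes, read 3.2 and 11.6 in LIN28A cells and 28.8 and 32.0 in control cells (-1.22 and -0.80). Their limma adjusted p was 1.

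Many oligodendrocyte genes read low, while others read well above 16. Of 20, 17 had a probe set, and for 10 of these every probe set read under 16 in every array, including the lineage factors Olig2 and Sox10, the progenitor proteoglycan gene Cspg4 and the myelin gene Cnp. The share over all genes was not counted, and over all probe sets other than controls it was 31.1%. Olig2 read 0.4 and 1.0 in LIN28A cells and 13.2 and 1.2 in control cells. Among those above 16, named after their values were seen, were Qk and Myrf. Qk read 1397.4 and 1457.0 in LIN28A cells and 1381.2 and 1511.9 in control cells at its brightest probe set. Myrf read 46.7 and 108.6 in LIN28A cells and 58.0 and 47.1 in control cells. Pdgfra, the receptor gene of oligodendrocyte progenitors, read 14.3 and 20.2 in LIN28A cells and 25.9 and 9.6 in control cells at its brighter probe set. Mbp, the myelin basic protein gene, read 97.3 and 205.1 in LIN28A cells and 161.9 and 237.2 in control cells at its brightest probe set, with overlap, and its other probe sets gave both signs. Of 8 tested genes, 0 passed and 2 were lower in both LIN28A arrays (background 16.6%), which were Sirt2 (-0.64) and Ugt8a (-0.85), named after their values were seen.

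The list of signals and regulators of gliogenesis held genes that promote it and genes that hold it back. Of 37, 30 had a probe set and 28 were tested, with 0 higher and 0 lower after adjustment and a median of -0.06 (-0.07 in number 1 and 0.04 in number 2). Il6st, which encodes the receptor subunit gp130, read 38.1 and 56.4 in LIN28A cells and 44.9 and 42.8 in control cells. Lifr, its partner for leukaemia inhibitory factor, read 53.1 and 83.4 in LIN28A cells and 59.3 and 68.5 in control cells, and Cntfr, a further receptor subunit gene, read 38.3 and 70.3 in LIN28A cells and 33.5 and 89.0 in control cells. At these probe sets, the brightest of each gene, all 3 overlapped and read over 16 in every array. Their other probe sets all had readings under 16. Among those, Il6st 1421239_at and Lifr 1450207_at read under 16 in every array and lower in both LIN28A arrays. Stat3, the transcription factor gene downstream of gp130, read 48.7 and 125.0 in LIN28A cells and 88.5 and 136.9 in control cells at its brightest probe set. Jak2, a kinase gene of the same route, read 123.7 and 156.7 in LIN28A cells and 93.5 and 133.8 in control cells. Smad1, the bone morphogenetic protein effector gene, read 264.6 and 230.2 in LIN28A cells and 273.9 and 247.9 in control cells.

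Within the Notch part of that list, Hes5 encodes a repressor that keeps progenitors undifferentiated. Its brightest probe set, 1456010_x_at, is of the type marked as open to cross-hybridisation. There it read 924.2 and 337.2 in LIN28A cells and 185.6 and 194.3 in control cells. Both LIN28A arrays exceeded both control arrays, by 2.22 in number 1 and 0.75 in number 2. The fitted difference of 1.48 ± 0.50 (SE, n = 2 each) had an unadjusted limma p of 0.025 and an adjusted p of 1, and it was 0.78 without LIN28A replicate 1. The other probe set, 1423146_at, lay the same way by less, at 1.17 in number 1 and 0.17 in number 2. Its fitted difference was 0.67 ± 0.37 (unadjusted limma p of 0.12). The receptor gene Notch1 overlapped, with 457.7 and 505.7 in LIN28A cells and 284.8 and 576.3 in control cells. Counting all 28, 4 genes were higher in both LIN28A arrays (background 11.5%) and 4 were lower (background 16.6%). Besides Hes5, those higher were Notch2 (0.47), the DNA methyltransferase gene Dnmt1 (0.33) and the Polycomb methyltransferase gene Ezh2 (0.59). Those lower were Hes1 (-0.34), Bmp2 (-0.63) and the proneural genes Neurog1 (-0.11, and 0.01 under median centring) and Neurog2 (-0.46). All but Hes5 are named after their values were seen, and none passed.

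**Figure D3:**
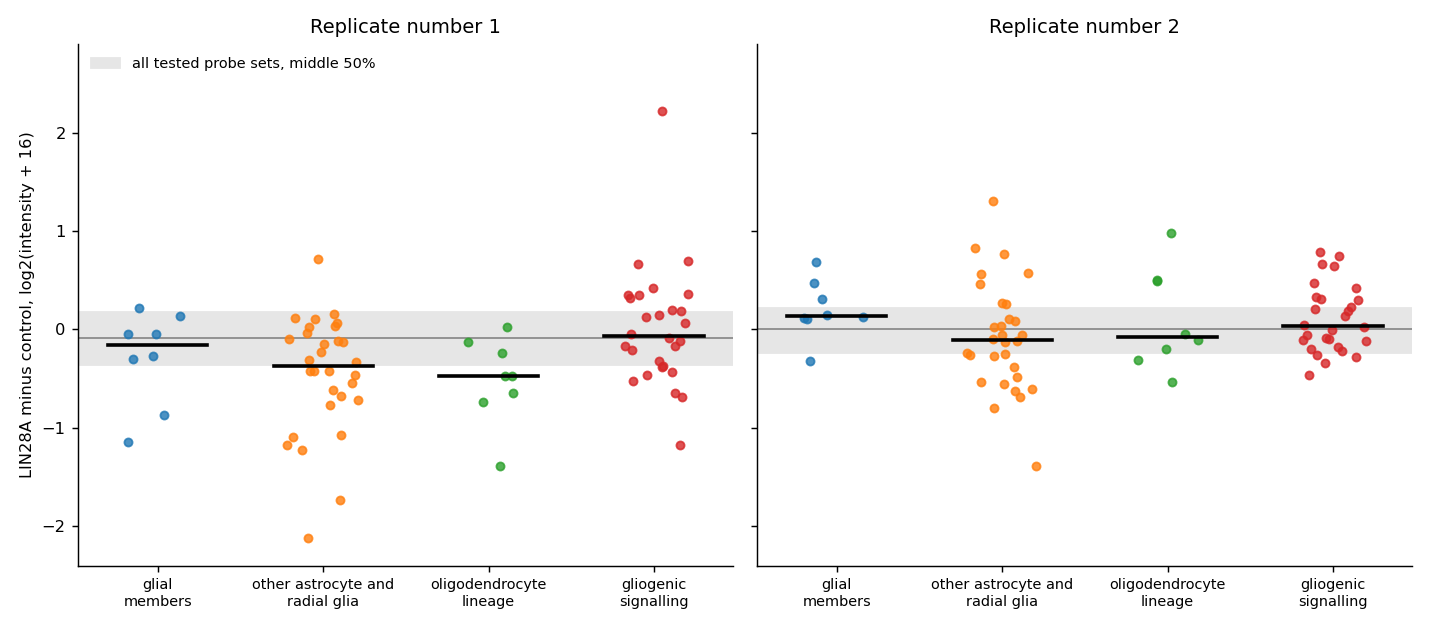
LIN28A minus control on the log2(intensity + 16) scale within number 1 (left) and number 2 (right), 1 point per gene at its brightest tested probe set, with a black bar at each list's median and a grey band for the middle 50% of all tested probe sets around their median line. The medians of the 10-gene group, over its 8 genes with a tested probe set, lie at -0.16 (0.026 under quantile normalization and 0.04 under median centring) and 0.14. The single point above 2 in number 1 is Hes5 at probe set 1456010_x_at.

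Markers of other cell types give the setting of these values, and single genes among them are named after their values were seen. The summed intensity of neuronal markers was lower in LIN28A cells within each number, though LIN28A 2 exceeded control 1. The brightest probe sets of 15 such genes summed to 2326.0 and 4989.7 in LIN28A cells and 4397.4 and 7112.9 in control cells. All 14 tested genes had a fitted difference below 0, with 0 called. Their median was -0.55, against -0.05 over all tested probe sets. Under median centring it was -0.43 (0.08 over all), and Tubb3 turned from -0.09 to 0.04. Rbfox3, a marker of mature neurons, read under 16 in every array. The 9 neural progenitor markers summed to 4671.9 and 3866.3 in LIN28A cells and 3907.0 and 5517.5 in control cells, so the lines overlapped. Of 8 microglial markers, 6 read under 16 in every array, among them Aif1, Cx3cr1, P2ry12 and Itgam. The 9 pluripotency markers summed to 332.7 and 985.5 in LIN28A cells and 234.0 and 491.4 in control cells. Pou5f1 read 28.7 and 775.2 in LIN28A cells and 30.3 and 374.2 in control cells, so it overlapped. Its number 2 arrays lay far above its number 1 arrays in both lines (log2 difference 3.61). Sall4 read 194.2 and 83.1 in LIN28A cells and 16.4 and 2.1 in control cells at its brighter probe set. Of 7 tested, Sall4 (2.58) and Utf1 (0.65) were higher in both LIN28A arrays (background 11.5%) and Fgf4 (-0.38) was lower (background 16.6%), with 0 called. The 9 fibroblast and smooth muscle markers summed to 336.0 and 515.9 in LIN28A cells and 308.1 and 145.7 in control cells. Col1a1, Tagln, Postn, Lum and Pdgfrb read under 16 throughout. Of 7 tested, Col3a1 (1.52) and Acta2 (0.91) were higher in both LIN28A arrays (background 11.5%), with 0 called. Col3a1 read 70.2 and 147.9 in LIN28A cells and 48.3 and 10.9 in control cells at its brighter probe set. The list's median was 0.36, with -0.01 in number 1 and 0.84 in number 2. The 8 endoderm markers summed to 157.8 and 350.5 in LIN28A cells and 153.1 and 82.9 in control cells, of which Lamb1 alone read 106.8 and 272.7 in LIN28A cells and 83.8 and 45.6 in control cells, and 5 of the 8 read under 16 in every array. The 4 tested neural crest and Schwann markers had a median of -0.44, with -0.79 in number 1 and -0.22 in number 2. Of these, Erbb3 was lower in both LIN28A arrays (background 16.6%), with 0 called. The 5 tested mesoderm markers had a median of 0.09, with -0.05 in number 1 and 0.32 in number 2 and 0 called. The part of these marker levels in the glial values was not tested.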

How the data were processed

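Total RNA of 4 P19 samples was made into biotin-labelled cRNA and hybridised to 1-colour Affymetrix arrays, per the labels' protocols. The authors deposited 1 table of linear intensity values that carries no detection calls. Which software summarised and scaled the probes is not named in the sources used here. Trimmed by 2% at each end, every array had a mean of 150.1, so the values were taken as already scaled. By the platform annotation, 20393 probe sets had exactly 1 symbol, 691 had several, and 1555 that are no controls are unnamed here.

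Values were turned into log2(intensity + 16). Left out were the 64 control probe sets and those under the 30th percentile of mean log2 value (8.04 on the linear scale), which kept 15838. The main comparison was LIN28A minus control with limma 3.58.1 (R 4.3.3; lmFit, eBayes, no block), with Benjamini-Hochberg adjusted p-values called under 0.05. A check of the fit on simulated data had to pass only on the mean fitted difference, so it does not speak for the calls. Intervals are 95% limma intervals. Since nothing says that the arrays came from separate cultures, p-values cover the spread between arrays alone, which may be technical, and the number of arrays limits precision. An exact permutation test (two-sided) cannot give a p below 0.333 with 2 arrays a line, and none is reported. Deviations of arrays with the same number correlated (r = 0.62 across probe sets), yet the labels give them only a shared number.

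The members, the other lists and the genes named were chosen with earlier results of these data known. Every member probe set is described, plus up to 10 chosen genes from each other glial list, and exceptions are marked. Single markers of other cell types fall outside that choice and were named with their values known. Alternatives were quantile normalization, median centring, pseudocounts of 1 and 64, no filter, a filter at the 50th percentile, the replicate number as a block, all probe sets of a gene averaged and leaving out each array. All columns of the table were used.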

Additional observations from a re-analysis of the deposited data

How the results depend on the processing

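Alternatives for the lists and for genes other than the members, and the counts without 1 array, were chosen after seeing the data, and the cause of each move was not tested. The replicate block called 1 probe set higher and 0 lower over the whole table (468 and 890 at an unadjusted p under 0.05), while each other alternative called 0 either way. Under the block 0 of the members' probe sets were called and 0 had an unadjusted p under 0.05.

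Scaling turned the sign of the members' median (0.14 under quantile normalization and 0.095 under median centring) and of its number 1 value (0.026 and 0.04), and of Nfix (0.11 under quantile normalization and 0.056 under median centring), Cntfr (0.044 and 0.052), Id3 (-0.00042 under quantile normalization), Smad1 (0.053 under median centring) and Neurog1 (0.012 under median centring). The median of all tested probe sets was -0.05 as reported, 0.01 under quantile normalization and 0.08 under median centring. The other astrocyte and radial glia median was -0.1 and -0.018, and the gliogenic signalling median became 0.058 under quantile normalization and 0.064 under median centring. With a pseudocount of 64, Olig1 was -0.001 and Pdgfra -0.0026.

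Leaving out 1 array moved the members' median to between -0.32 and 0.16. It gave -0.37 to -0.079 for the other astrocyte and radial glia median, -0.25 to 0.035 for oligodendrocyte genes and -0.15 to 0.29 for gliogenic signalling. Among single members, the range was -0.84 to -0.18 for Gfap, 0.14 to 0.22 for Slc1a3, -0.29 to -0.083 for Sox9, 0.0043 to 0.25 for Sparcl1, -0.59 to 0.19 for Nfia, -0.56 to 1.2 for Nfib, -0.58 to 0.44 for Nfix and -0.21 to 0.23 for Olig1. With 1 array left out, every LIN28A array was above every control array for 3 to 10 member probe sets and below for 2 to 9, counts that cannot fall when an array is left out (23.1% to 32.1% and 30.7% to 40.5% over all tested probe sets). Those ranges were 4 to 7 and 12 to 18 for the other astrocyte and radial glia genes, 0 to 2 and 3 to 4 for oligodendrocyte genes, and 4 to 14 and 6 to 14 for gliogenic signalling (24.5% to 33.3% and 30.6% to 40.6% over genes).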
